A study of Mus musculus with 12 samples.

Results

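Collagen genes encode the chains of the triple-helical proteins that make up most of the extracellular matrix, and 43 of the 22609 gene symbols counted here carry a collagen name of the form Col, a type number, the letter a and a chain number. All symbols of that form were taken, whatever their level, and they were sorted into 11 chains of fibrillar collagens, 8 chains of basement membrane collagens and 24 other collagens. The fibrillar class holds types I, II, III, V, XI, XXIV and XXVII, the basement membrane class holds types IV, XV and XVIII, and the others are chains of beaded filaments, of collagens attached to fibrils (FACIT collagens), of transmembrane, short chain and anchoring fibril collagens, and of type XXVIII.

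Each chain is made as a procollagen in the endoplasmic reticulum, where prolines and lysines are hydroxylated and chains of a type join into a trimer, and the trimer is then secreted, trimmed and crosslinked. Fibrillar collagens form the cables of connective tissue, whereas type IV collagen forms the sheet that lies under endothelial cells and around Schwann cells, satellite glia and axons. In a sensory ganglion collagens come mainly from fibroblasts, vessel cells and glia, and neurons lie inside the basement membranes of their satellite glia.

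RNA was sequenced from sensory neurons of the trigeminal ganglion (TG) that innervate the tongue, labeled by wheat germ agglutinin (WGA) injected in the tongue and sorted by flow cytometry. Adult Balb/c athymic nude mice of 6 to 8 weeks gave 3 samples in each of 4 groups, normal males (MN), normal females (FN), tumor-bearing males (MT) and tumor-bearing females (FT). Tumor mice received 350000 cells of HSC3, a human oral squamous carcinoma line, in the tongue. The sample labels state that normal mice received no cells and the paper's methods state that they received normal oral keratinocytes, so whether the normal tongues were injected is unsettled. WGA was given on day 13 and TGs were harvested on day 15, with 4 TGs of 2 mice pooled in a normal sample and 4 ipsilateral TGs of 4 mice in a tumor sample. These mice lack T cells, the tumor is of a single cell line, and p-values measure the spread between pools of animals.

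The libraries held 4592891 to 8922011 reads on genes. FN2, FT2 and FT3 (letters for the group, then the replicate) stood apart from the other 9 libraries. Their Spearman correlation with any of those 9 was at most 0.850, 0.811 and 0.908, against at least 0.971 among the 9, and 56.0%, 68.4% and 52.6% of their reads mapped to several places, against at most 45.5%. Values are therefore given with and without these 3 libraries. Markers of sensory neurons were high in every library (12294 to 22294 CPM, which are reads of a gene scaled to the same total of reads on genes, summed over 10 genes), and markers of other cells were present too. Satellite glia markers summed to 4193 to 18804 CPM, myelinating Schwann cell markers to 1217 to 3664 CPM, endothelial markers to 211 to 1236 CPM, fibroblast markers to 271 to 599 CPM, pericyte and smooth muscle markers to 106 to 308 CPM and macrophage markers to 7.80 to 242 CPM. In these bulk samples fewer cells of a type and less RNA per cell cannot be told apart.

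Genomic sequence is shown first for the chains on which the results turn. Type IV collagen chains are encoded in pairs that lie head to head and are read in opposite directions, with both transcription starts close together. In the mm9 build the 5' ends of Col4a1 (chr8:11198423-11312826, minus strand) and Col4a2 (chr8:11312805-11449287, plus strand) overlap by 22 bases, printed as read on the plus strand from chr8:11312805-11312826. Col4a3 (chr1:82583496-82718634, plus strand) and Col4a4 (chr1:82447298-82583424, minus strand) are 71 bases apart at chr1:82583425-82583495. Col4a5 and Col4a6 lie head to head on chromosome X, 1308 bases apart. Capitals mark GGGCGG (the GC box) and, in the windows printed after these, CCAAT, each on either strand.
Col4a1 and Col4a2 overlap: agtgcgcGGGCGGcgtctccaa
Col4a3 and Col4a4 gap: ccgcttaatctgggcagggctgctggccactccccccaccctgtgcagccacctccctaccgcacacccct

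The 250 bases before the start of 3 fibrillar genes are shown because Col5a3 had the smallest p of the collagens in FN versus MN and Col1a1 and Col1a2 encode the chains of one trimer. They are given 5' to 3' on the strand of the gene, from chr9:20619512-20619761 (minus strand) for Col5a3, chr6:4454564-4454813 (plus strand) for Col1a2 and chr11:94797288-94797537 (plus strand) for Col1a1. The genes themselves lie at chr9:20574494-20619511, chr6:4454814-4491543 and chr11:94797538-94814356.
Col5a3: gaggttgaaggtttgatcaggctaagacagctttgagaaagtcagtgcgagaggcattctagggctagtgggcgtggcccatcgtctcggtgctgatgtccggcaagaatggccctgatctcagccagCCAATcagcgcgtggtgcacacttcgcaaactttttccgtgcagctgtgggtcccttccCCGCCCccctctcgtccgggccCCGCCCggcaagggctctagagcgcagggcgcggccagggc
Col1a2: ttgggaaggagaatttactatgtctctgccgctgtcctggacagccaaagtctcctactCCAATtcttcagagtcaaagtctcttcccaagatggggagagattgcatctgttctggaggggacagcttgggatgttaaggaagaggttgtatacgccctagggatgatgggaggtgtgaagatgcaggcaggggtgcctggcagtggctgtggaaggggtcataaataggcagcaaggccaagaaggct
Col1a1: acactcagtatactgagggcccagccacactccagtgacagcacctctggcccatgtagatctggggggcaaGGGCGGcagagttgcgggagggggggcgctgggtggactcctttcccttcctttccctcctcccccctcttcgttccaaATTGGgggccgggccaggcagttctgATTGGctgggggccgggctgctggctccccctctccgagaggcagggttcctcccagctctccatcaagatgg

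The Col5a3 window held 2 GC boxes and 1 CCAAT, the Col1a2 window 1 CCAAT, and the Col1a1 window 1 GC box and 2 CCAAT. Windows of 22 of the 43 collagens (51.2%) held GGGCGG, against 39.6% of the 22375 windows of protein-coding genes, and 17 (39.5%) held CCAAT, against 35.0%. TATAAA was found before 5 collagens (11.6%) and in 12.3% of all windows. Both strands were searched, and a match describes the letters only.

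Collagen transcripts were sparse. RPKM, which are CPM divided by exon length in kilobases and allow genes to be compared, averaged over 1 across the 12 libraries for 10 of the 43 chains and over 0.1 for 30. Counts were above 0 in every library for 27 chains, and 4 chains (Col2a1, Col4a6, Col6a4 and Col9a1) never exceeded 3 counts in a library, the level taken as the limit of detection. The collagens with the highest level per length were the common type IV chains Col4a2 (6.82 RPKM) and Col4a1 (6.34 RPKM), which build most basement membranes. Next were Col5a3 (4.30 RPKM), a type V chain that controls fibril assembly, and Col28a1 (3.91 RPKM), a collagen known from peripheral nerve and its glia. Col18a1 (3.54 RPKM), the vascular basement membrane collagen whose end fragment is endostatin, and Col16a1 (3.35 RPKM), a FACIT collagen, followed. Col4a2 stood at the 70.5th percentile of all 21627 genes with a length. The main chains of connective tissue fibrils were lower, with Col1a2 at 1.50 RPKM, Col1a1 at 0.613 RPKM and Col3a1 at 0.568 RPKM.

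**Figure D1:**
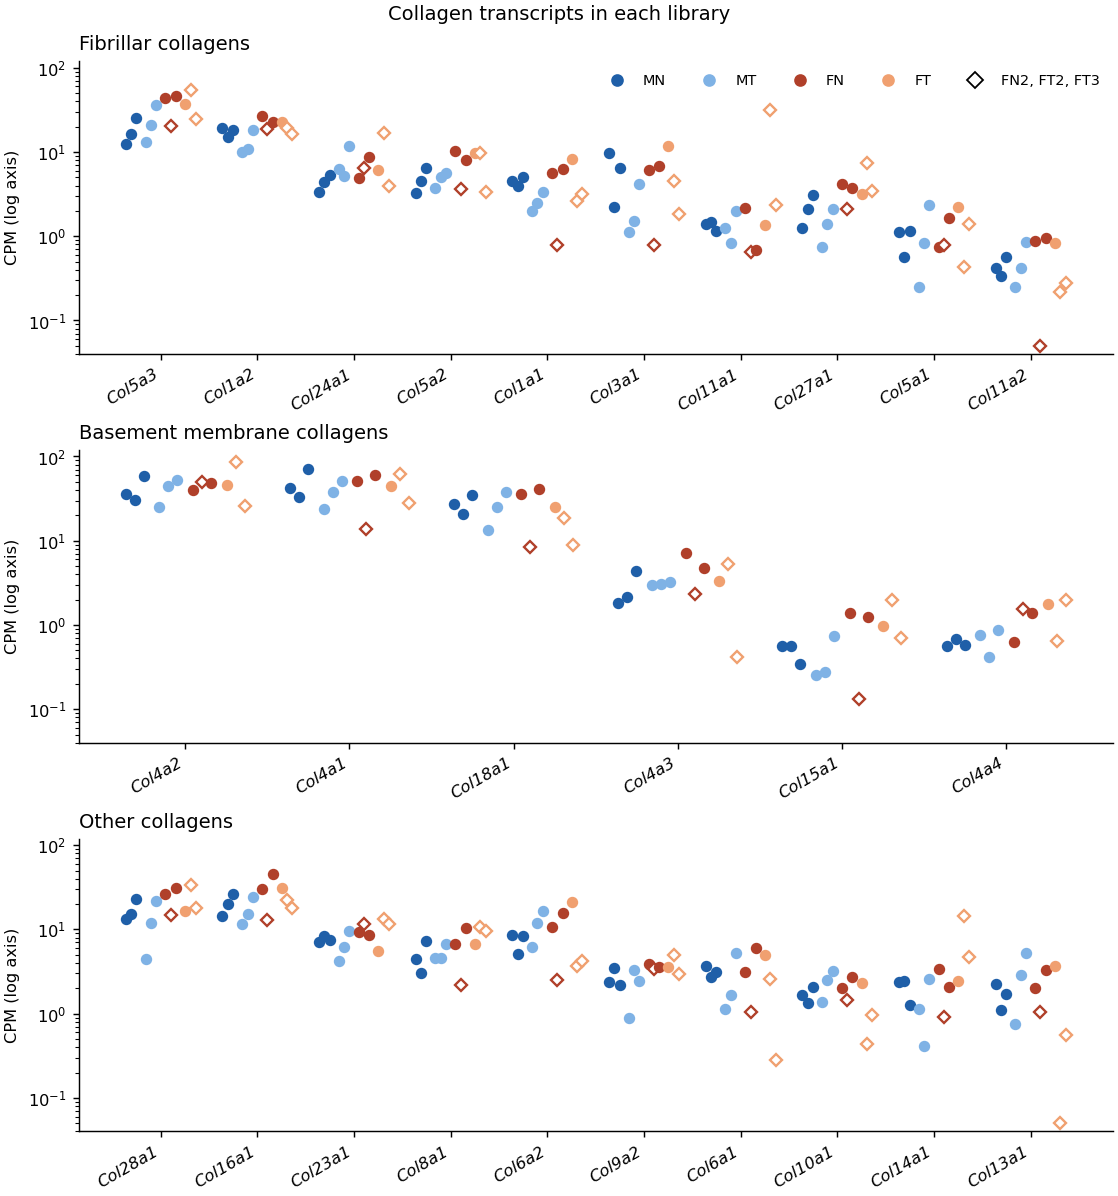
CPM on a log axis of up to 10 collagens per class in order of mean RPKM, limited to those above the limit of detection in every group, with a point for each library, colored by group. Open diamonds are FN2, FT2 and FT3, and points at the lowest edge are libraries without a read. Col4a2, Col4a1 and Col5a3 lie near the top in all groups, and the single Col11a1 point far above the rest is FT2 (31.6 CPM).

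Summed over the 43 chains, collagens took 237, 210 and 338 CPM in MN, 148, 229 and 340 CPM in MT, 351, 191 and 405 CPM in FN and 335, 439 and 206 CPM in FT (replicates 1 to 3). The groups overlapped. Fibrillar collagens summed to 60.7 ± 11.5 CPM (SD, n = 3) in MN, 58.5 ± 25.1 in MT, 88.6 ± 29.7 in FN and 104 ± 43 in FT. Basement membrane collagens summed to 122 ± 42.7 CPM in MN, 108 ± 39.8 in MT, 124 ± 42.2 in FN and 121 ± 53.8 in FT. Over 12 libraries the basement membrane sums were thus nearly level across groups. The fibrillar means, and those of the other collagens given next, were higher in females. The other collagens summed to 78.9 ± 13.9 CPM in MN, 72.6 ± 32.9 in MT, 104 ± 40.6 in FN and 102 ± 20.8 in FT. Fibrillar sums were 1.46 times as high in FN as in MN (log2 ratio 0.55, SD of the log2 sums within groups 0.44) and 1.78 times as high in FT as in MT (log2 ratio 0.83, SD 0.62), and without the 3 libraries these ratios were 1.74 and 1.77. Those of the basement membrane class were 1.01 and 1.12, and without the 3 libraries 1.21 and 1.13. Those of the other collagens were 1.31 and 1.41, and without the 3 libraries 1.59 and 1.51. FN2 had 76.3 CPM of basement membrane collagens, against 137 in FN1 and 157 in FN3. In MT the class sums were 0.963 (fibrillar), 0.883 (basement membrane) and 0.920 (other) times those in MN, and in FT they were 1.17, 0.975 and 0.986 times those in FN. Without FN2, FT2 and FT3 the ratios of FT to FN were 0.981, 0.829 and 0.874, so that of the fibrillar class turned below 1. No class sum separated the groups of a comparison.

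The sums overlapped between the sexes, and the share of basement membrane chains among collagen reads did not. Basement membrane collagens took 46.0%, 41.7% and 50.2% of all collagen reads in MN and 45.2%, 48.4% and 42.9% in MT, but 39.1%, 39.9% and 38.8% in FN and 36.4%, 39.5% and 32.1% in FT. The highest of the 6 female libraries thus lay below the lowest of the 6 male libraries, FN2, FT2 and FT3 included. How many single genes or other shares part the same 6 and 6 libraries was not computed, so how unusual this is remains unknown. The mean share was lower in FN than in MN (39.3% and 46.0%, a difference of -6.70 percentage points) and in FT than in MT (36.0% and 45.5%, -9.51 points), and without the 3 libraries these differences were -7.03 and -9.11 points. The sexes were also separated on the per-length scale, at 31.4% to 39.8% of summed RPKM in females and 40.6% to 49.3% in males. Fibrillar collagens took 21.7% to 24.5% of collagen reads in MN and 21.8% to 26.3% in MT, and 26.3% to 29.8% in FN and 29.6% to 33.5% in FT. On that scale the lowest female library (26.33%) lay just above the highest male library (26.30%), so this share parted the sexes too, by a very small margin. Per length they overlapped narrowly, with females from 21.78% to 27.6% and males from 17.5% to 21.80%. With Col5a3 left out of the total, the basement membrane share still ran from 36.5% to 45.1% in females and from 45.3% to 54.3% in males. Type IV chains alone did not separate the sexes, at 27.5% to 35.5% in females and 31.5% to 39.8% in males. The tumor groups did not differ from the normal group of their sex by more than their spread, since MT (42.9% to 48.4%) lay within the range of MN and FT (32.1% to 39.5%) overlapped FN (38.8% to 39.9%). These shares were examined after the sums had been seen, so they are given without a test.

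**Figure D2:**
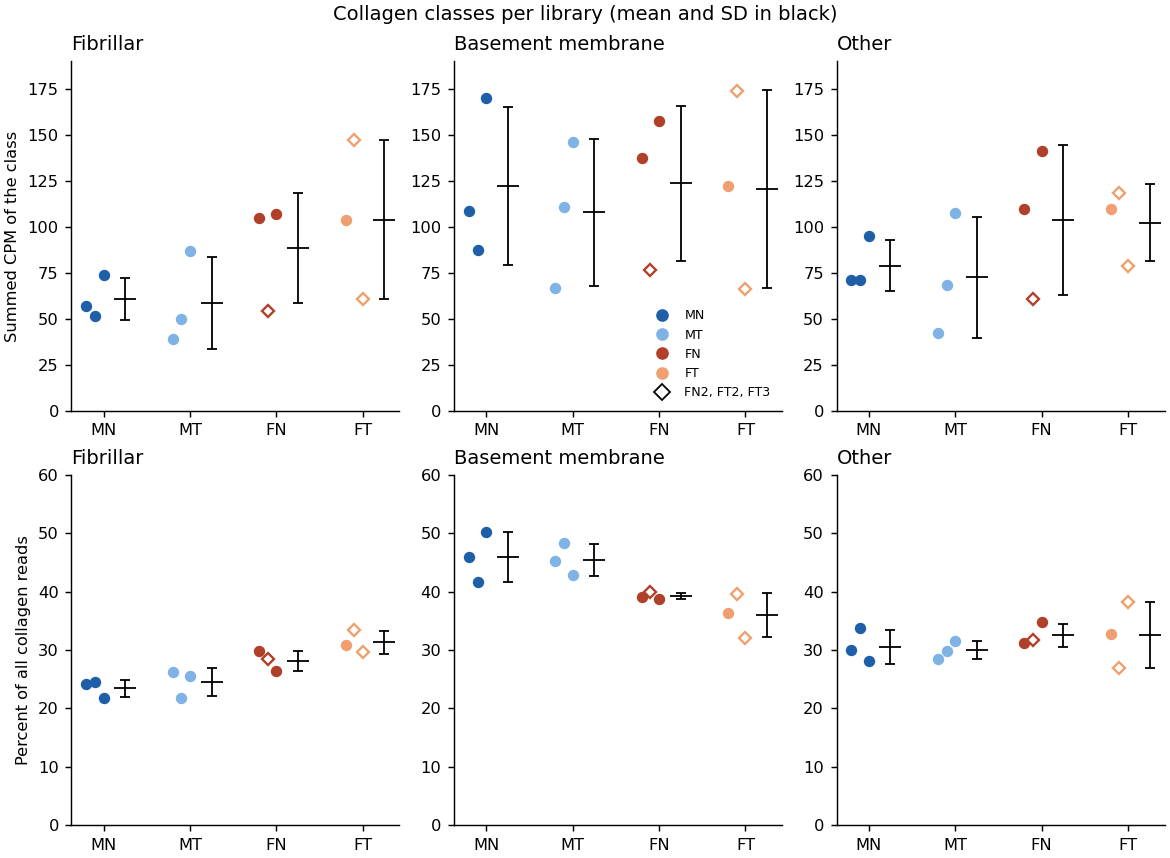
Summed CPM (upper row) and percent of all collagen reads (lower row) of the 3 collagen classes in each library, by group, with the group mean and SD in black and open diamonds for FN2, FT2 and FT3. The sums overlap between groups, and in the lower middle panel all female points (32.1% to 39.9%) lie below all male points (41.7% to 50.2%).

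The first comparison asked whether normal females and males differed. Of the 43 chains, 29 passed the filter on low counts and entered the quasi-likelihood test of edgeR, fitted to all 12 libraries, and 14 were too low, among them both X-linked chains Col4a5 and Col4a6. None of the 29 had an adjusted p under 0.05 (0% of all 13360 genes tested), and 1, Col5a3, had an unadjusted p under 0.05 (background 5.57%). DESeq2 called none either, with 1 collagen, again Col5a3, at an unadjusted p under 0.05 (background 7.36%). Col5a3 read 12.4, 16.5 and 25.5 CPM in MN and 43.4, 20.2 and 46.8 CPM in FN. In CPM, FN1 and FN3 were above every male normal library, and FN2 lay between MN2 and MN3. CPM, and all overlaps stated from them, leave out the TMM factors by which edgeR scales libraries. These were 0.818 in FN2, 0.775 in FT2 and 0.971 in FT3, against 1.01 to 1.08 in the others. Dividing by a factor under 1 raises a library, so where FN2 or FT2 lies beside another group can change under that scaling. The log2 fold change of Col5a3 was 1.07 ± 0.47 (SE) with an unadjusted p of 0.0372 and an adjusted p of 0.809 in edgeR.

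Limma-voom with sample quality weights, which gives libraries that fit poorly less weight, called 5 of the 29 higher in FN (5.99% of all genes were called in either direction). They were Col5a3 (log2 fold change 1.28, adjusted p = 0.00386 in limma), Col5a2 (0.94, adjusted p = 0.0313), Col4a3 (1.14, adjusted p = 0.0363), Col6a3 (1.94, adjusted p = 0.0395) and Col16a1 (0.76, adjusted p = 0.0404). Col5a3 and Col5a2 are both type V chains, which set the diameter of type I fibrils. Over the 9 libraries without FN2, FT2 and FT3, edgeR called none of 31 collagens after adjustment and 6 at an unadjusted p under 0.05, the same 5 and Col6a2, all higher in FN (background 15.2%). Limma-voom on those 9 libraries called Col5a3 alone (background 4.14%), and edgeR on FN1, FN3 and the MN libraries called Col5a3 (log2 fold change 1.26, adjusted p = 0.00552) and Col16a1 (0.83, adjusted p = 0.0442) of 27 (background 5.53%). By the criteria of the paper (unadjusted p under 0.05, fold change over 1.5 and mean RPKM over 5 in a group) 1 collagen, Col5a3, was counted (background 3.69%). Leaving out FN2 alone, or FN2 and FT2, edgeR called no collagen in FN versus MN (adjusted p = 1.00 and 0.518 for Col5a3), so whether Col5a3 was called changed with both the tool and the libraries fitted.

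Fibrillar chains other than Col5a3 differed less. Col5a2 (chr1:45431166-45560127) read 3.23, 4.48 and 6.43 CPM in MN and 10.2, 3.65 and 8.08 CPM in FN, with FN1 and FN3 above MN and FN2 inside it. Col1a2 read 19.4, 15.1 and 18.5 CPM in MN and 26.6, 18.7 and 22.9 CPM in FN (log2 fold change 0.45 ± 0.33, adjusted p = 0.813 in edgeR). Here FN2 lay within the MN range in CPM, which leave out the TMM factors. Col24a1 (chr3:144955436-145214975), a fibrillar collagen known from developing bone and cornea, read 3.37, 4.37 and 5.39 CPM in MN and 4.90, 6.52 and 8.77 CPM in FN. Col1a1 read 4.50, 3.92 and 5.05 CPM in MN and 5.66, 0.783 and 6.30 CPM in FN, so its mean was lower in FN only through FN2.

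Among basement membrane chains Col4a2 and Col4a1 did not separate normal females from males. Col4a2 read 35.7, 30.4 and 58.2 CPM in MN and 40.2, 50.1 and 48.1 CPM in FN (log2 fold change 0.28 ± 0.48, adjusted p = 0.870 in edgeR). Col4a1 read 42.3, 32.8 and 71.5 CPM in MN and 51.8, 13.8 and 60.1 CPM in FN (-0.20 ± 0.50, adjusted p = 0.908 in edgeR). Col4a3, which with Col4a4 forms the tougher network of kidney and lung basement membranes, read 1.83, 2.13 and 4.36 CPM in MN and 7.17, 2.35 and 4.79 CPM in FN. Its partner Col4a4 read 0.562, 0.672 and 0.574 CPM in MN and 0.629, 1.57 and 1.37 CPM in FN. Those Col4a4 values stand for 4 to 12 reads. Col18a1 (chr10:76514923-76629293) read 27.6, 21.0 and 35.0 CPM in MN and 35.8, 8.35 and 41.5 CPM in FN, where FN1 and FN3 were above MN and FN2 below it.

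Of the other collagens, Col16a1 (chr4:129725084-129776527) read 14.6, 20.0 and 26.3 CPM in MN and 30.2, 12.8 and 45.1 CPM in FN. Col28a1 (chr6:7947808-8142617) read 13.2, 15.2 and 22.8 CPM in MN and 26.0, 14.9 and 31.1 CPM in FN. In both chains FN1 and FN3 were above all MN libraries and FN2 was not. Col23a1 (chr11:51103422-51397420), a transmembrane collagen of the cell surface, read 7.17, 8.29 and 7.46 CPM in MN and 9.30, 11.6 and 8.63 CPM in FN. It was the 1 collagen of 29 whose FN and MN libraries did not overlap in CPM, and 19.8% of all genes did not overlap either. Its log2 fold change was 0.50 ± 0.47 (adjusted p = 0.814 in edgeR), and without the 3 libraries it was 0.18 ± 0.29. With FN2 set aside, FN was above MN without overlap in 13 of 29 collagens and below it in none, against 37% of all genes in either direction and 23.2% with FN higher.

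The direction was shared more widely than the calls. Over 12 libraries 23 of 29 collagens had a higher fitted level in FN than in MN (79.3%, against 54.3% of all genes), with a median log2 fold change of 0.40 against 0.07 for all genes. By class these were 6 of 9 fibrillar, 4 of 5 basement membrane and 13 of 15 other collagens, with medians of 0.45, 0.28 and 0.40. Over the 9 libraries 29 of 31 were higher (93.5%, against 50.3% of all genes) with a median of 0.44 against 0.00. Markers of other cell types moved in the same comparison. Over 9 libraries 10 of 10 endothelial markers were higher in FN (median 0.93), as were 8 of 9 fibroblast markers (median 0.79), 8 of 9 satellite glia markers (0.68) and 10 of 10 macrophage markers (2.99), against 1 of 10 neuron markers (-0.12). Pericyte and smooth muscle markers were higher for 8 of 10 (0.51). Myelinating Schwann cell markers moved little, with 6 of 9 higher (0.12). The part of these cells in the collagen values was not tested.

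Other genes of the pathway were counted in the same way. Of the genes that fold, hydroxylate, trim or crosslink collagen, 13 of 28 tested were higher in FN than in MN over 12 libraries (median -0.07). Of these 28, 1 had an unadjusted p under 0.05 (background 5.57%). It was Sparc, a matrix protein that binds collagen, at 464 CPM in MN and 751 CPM in FN (log2 fold change 0.84 ± 0.39, adjusted p = 0.809 in edgeR). Of the collagen receptors 3 of 7 were higher (median -0.12) and none had an unadjusted p under 0.05. Of the laminins, nidogens and heparan sulfate proteoglycans, the other parts of basement membranes, 10 of 14 were higher (median 0.21) and none had an unadjusted p under 0.05. Over 9 libraries these counts were 21 of 28 (75.0%), 3 of 7 and 12 of 14 (85.7%), against 50.3% of all genes.

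The second comparison between the sexes, in tumor-bearing mice, shares no library with the first. In both comparisons the paper reports more sorted cells in the female than in the male samples. The part of this difference in the values was not tested. None of 29 collagens had an adjusted p under 0.05 in FT versus MT by edgeR (0% of all genes), and 6 had an unadjusted p under 0.05 (background 12.1%), of which Col11a1, Col14a1, Col27a1, Col7a1 and Col1a2 were higher and Col19a1 lower in FT. Limma-voom called none, with 1 at an unadjusted p under 0.05 (background 9.02%). DESeq2 called Col11a1 (log2 fold change 3.56, adjusted p = 0.0152) and Col14a1 (2.76, adjusted p = 0.0276) of 29 (background 1.86%), and edgeR without FT1 called the same 2 of 30 (adjusted p = 0.0363 and 0.0398, background 5.55%). FT2 had the highest level of both. Col11a1 (chr3:113733458-113923636), a fibril-forming chain that starts fibril assembly, read 1.26, 0.834 and 1.98 CPM in MT and 1.37, 31.6 and 2.37 CPM in FT, with 145 reads in FT2 and 5 to 17 in each of the other libraries. Col14a1 (chr15:55139305-55352358), a FACIT collagen that binds fibrils, read 1.13, 0.417 and 2.59 CPM in MT and 2.47, 14.6 and 4.74 CPM in FT. Without FT2 the log2 fold change in FT versus MT was 0.49 for Col11a1 and 1.41 for Col14a1 (adjusted p = 0.715 and 0.665 in edgeR), and FT3 was above every MT library in both. Without FN2, FT2 and FT3 the log2 fold change of Col11a1 was -0.05 ± 0.76, and that of Col14a1 was 0.76 ± 0.76.

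Groups did not overlap in FT versus MT for 4 of 29 collagens (background 17.6%), with Col27a1, Col7a1 and Col8a1 higher and Col19a1 lower in FT. Col27a1 (chr4:62875038-62996025), a fibrillar chain known from cartilage, read 0.755, 1.39 and 2.10 CPM in MT and 3.16, 7.40 and 3.49 CPM in FT (log2 fold change 1.94 ± 0.60, unadjusted p = 0.0061 and adjusted p = 0.321 in edgeR). Col7a1, the chain of anchoring fibrils, read 1.38, 1.25 and 1.61 CPM in MT and 2.33, 7.19 and 2.09 CPM in FT. Col8a1 (chr16:57624371-57754850), a short chain collagen of vessel walls, read 4.53, 4.58 and 6.67 CPM in MT and 6.72, 10.7 and 9.62 CPM in FT. For these 3 chains every FT library was above every MT library, by a small margin in Col8a1. Col19a1 (chr1:24268729-24594311), a FACIT collagen, read 2.14, 1.25 and 1.23 CPM in MT and 0.686, 0 and 0.139 CPM in FT. The FT values stand for 5, 0 and 1 reads, where a count of 0 allows up to 3 reads.

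Over the 9 libraries, in which FT is FT1 alone and is assumed to vary like the other groups, 4 of 31 collagens had an unadjusted p under 0.05 in FT versus MT and none an adjusted one (background 8.27%). All 4 were fibrillar and higher in FT. Col1a1 read 2.01, 2.50 and 3.33 CPM in MT and 8.37 CPM in FT1 (log2 fold change 1.61 ± 0.36, adjusted p = 0.317 in edgeR). Col3a1 (chr1:45368383-45406551), the chain of the type III fibrils of soft tissue, read 1.13, 1.53 and 4.20 CPM in MT and 11.9 CPM in FT1 (2.32 ± 0.65). FT1 was thus above all MT libraries in both, whereas FT2 and FT3 read 2.61 and 3.21 CPM for Col1a1 and 4.57 and 1.81 CPM for Col3a1, inside or near the MT range. Col1a2 read 10.1, 11.0 and 18.2 CPM in MT and 22.5, 19.2 and 16.2 CPM in FT, and Col5a2 read 3.77, 5.00 and 5.68 CPM in MT and 9.60, 9.80 and 3.35 CPM in FT. Over 12 libraries Col1a2 had a log2 fold change of 0.73 ± 0.34 (adjusted p = 0.410 in edgeR) and Col5a3, at 13.1, 21.0 and 36.3 CPM in MT and 37.3, 54.2 and 25.0 CPM in FT, one of 0.95 ± 0.47 (adjusted p = 0.422).

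As in normal mice, most collagens were higher in tumor-bearing females, at 24 of 29 over 12 libraries (82.8%, against 54.1% of all genes, median 0.73 against 0.07) and 25 of 31 over 9 libraries (80.6%, against 48.3%, median 0.63 against -0.01). All 9 fibrillar chains tested were higher in FT over 12 libraries (median 0.95), and 7 of 9 over 9 libraries (median 0.88). The basement membrane median was 0.48 over 12 libraries and 0.15 over 9. Both comparisons put 19 of 29 collagens higher in females, against 41.4% of all genes, and over 9 libraries 24 of 31, against 30.2% of all genes. Col19a1 was the 1 collagen lower in females in both, over 12 and over 9 libraries. Beside these values, over 12 libraries 10 of 10 macrophage markers (median 1.93), 10 of 10 pericyte and smooth muscle markers (0.59), 8 of 9 Schwann cell markers (0.80), 7 of 9 satellite glia markers (1.27) and 7 of 9 fibroblast markers (0.53) were higher in FT than in MT. Endothelial markers were higher for 4 of 10 over 12 libraries (median -0.45) and for 7 of 10 over 9 libraries (0.22). The part of these cells was not tested. Procollagen C-endopeptidase enhancer Pcolce, which aids the trimming of fibrillar procollagens, read 4.00 CPM in MT and 17.4 CPM in FT on average (log2 fold change 2.31 ± 0.51, adjusted p = 0.255 in edgeR). It was 1 of 3 processing genes with an unadjusted p under 0.05, all higher in FT, of 28 tested (background 12.1% in either direction). Of the processing list 14 of 28 were higher in FT over 12 libraries, of the receptors 4 of 7, and of the laminin list 8 of 14 (median 0.30).

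**Figure D3:**
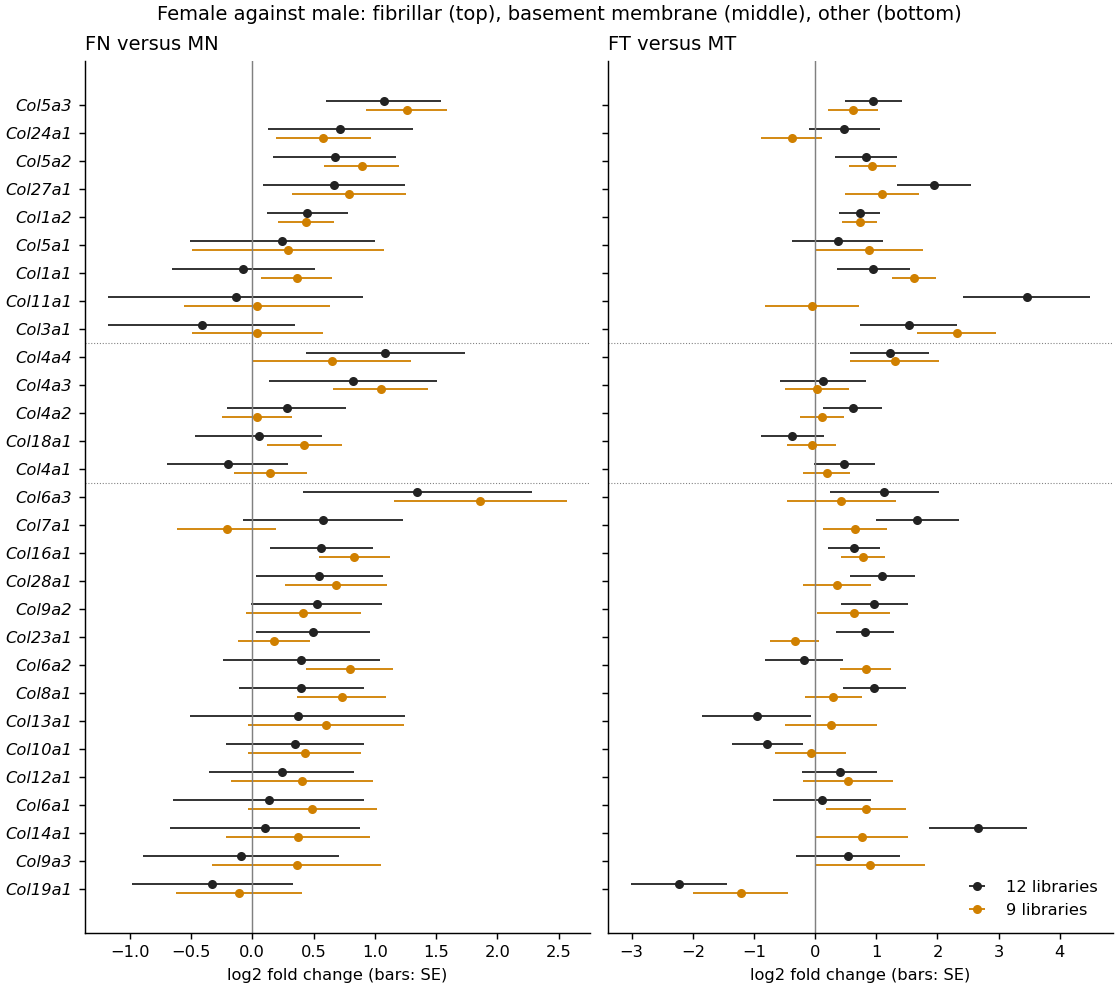
Log2 fold change with its SE for the 29 collagens tested, female against male, in normal mice (left) and tumor-bearing mice (right), fitted over 12 libraries (black) and over 9 libraries without FN2, FT2 and FT3 (orange). Dotted lines part the classes. Most points lie right of 0 (23 of 29 on the left and 24 of 29 on the right over 12 libraries), and Col11a1 and Col14a1 on the right move toward 0 in the fit of 9 libraries.

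The tumor comparison in males gave no call. Of 29 collagens none had an adjusted p under 0.05 in MT versus MN (0% of all 13835 genes), and none an unadjusted one (background 0.426%). DESeq2 also found none at either threshold (background 0.503% unadjusted). Limma-voom called none after adjustment and had 7 at an unadjusted p under 0.05 (background 11.3%), 6 of them lower and 1 higher in MT. Groups did not overlap for 2 collagens (background 13.1%), Col1a1 and Col7a1, both lower in MT. Col1a1 read 4.50, 3.92 and 5.05 CPM in MN and 2.01, 2.50 and 3.33 CPM in MT, so every tumor library was below every normal one (log2 fold change -0.76 ± 0.59, adjusted p = 1 in edgeR). Col7a1 read 2.25, 2.02 and 2.98 CPM in MN and 1.38, 1.25 and 1.61 CPM in MT. The other main fibrillar chains had lower means too but overlapped, Col3a1 at 9.70, 2.24 and 6.43 CPM in MN and 1.13, 1.53 and 4.20 CPM in MT, and Col1a2 at 19.4, 15.1 and 18.5 CPM in MN and 10.1, 11.0 and 18.2 CPM in MT. Over the 9 libraries 3 of 31 had an unadjusted p under 0.05 (background 7.25%), with Col1a1 (-0.76 ± 0.28) and Col3a1 (-1.38 ± 0.53) lower and Col24a1 (0.83 ± 0.35) higher in MT, and the adjusted p was 0.613 or more in edgeR. Col24a1 read 6.29, 5.14 and 11.9 CPM in MT, overlapping MN.

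Of the fibroblast markers 8 of 9 tested had a higher fitted level in MT than in MN (median 0.46 over 12 libraries). Their sum was 342, 271 and 325 CPM in MN and 320, 358 and 511 CPM in MT. Endothelial (median 0.19) and macrophage markers (1.33) were higher in MT for 9 of 10 each, and pericyte and smooth muscle markers for 5 of 10 (0.16). Satellite glia (-0.15) and Schwann cell markers (-0.23) were higher for 3 of 10 each. Of the 10 fibroblast markers 8 were counted in every library. Their levels differed widely, as Dpt was at most 0.412 CPM in any library and Dcn ranged from 43.8 to 236 CPM. The part of these cell types in the collagen values was not tested. Of all 29 collagens 12 were higher in MT (41.4%, against 51.2% of all genes), with a median of -0.12 against 0.01. Of the laminin list 4 of 14 were higher (median -0.05), of the processing list 11 of 28 (median -0.03) and of the receptors 3 of 7 (median -0.21), and no gene of these 3 lists had an unadjusted p under 0.05.

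In females none of 29 collagens had an adjusted p under 0.05 in FT versus FN (0% of 13835 genes), and 3 had an unadjusted one (background 3.82%), Col11a1 and Col14a1 higher and Col19a1 lower in FT. DESeq2 and limma-voom called none after adjustment, with 3 (background 4.97%) and 0 (background 4.08%) at an unadjusted p under 0.05. No collagen separated FT from FN (background 2.49%). In FN Col11a1 read 2.14, 0.652 and 0.685 CPM and Col14a1 read 3.39, 0.913 and 2.05 CPM, so FT1 lay inside the FN range for both, and FT2 and FT3 above it. The log2 fold change was 3.63 ± 1.05 for Col11a1 and 2.01 ± 0.78 for Col14a1 (adjusted p = 0.994 for both in edgeR), and without FN2, FT2 and FT3 it was -0.05 ± 0.81 and -0.14 ± 0.79. Col19a1 read 1.76, 0.652 and 1.51 CPM in FN. Col18a1 read 25.4, 18.5 and 8.78 CPM in FT, which overlapped FN through FN2 (log2 fold change -0.54 ± 0.52, adjusted p = 0.994 in edgeR). All FT libraries were below FN1 and FN3, and the share of all genes that did the same was not computed. The paper lists Col18a1 among the genes lower in FT than in FN. With its cutoffs applied to the edgeR p and the RPKM computed here, 0 collagens were counted in FT versus FN. Over 12 libraries 21 of 29 collagens had a higher fitted level in FT (72.4%, against 44.4% of all genes, median 0.20 against -0.06), and over 9 libraries 12 of 31 (38.7%, against 47.3%, median -0.06 against -0.02), so the direction turned with the 3 libraries. Beside it, 1 of 10 endothelial markers (median -0.86) and 3 of 9 fibroblast markers (-0.24) were higher in FT over 12 libraries. Pericyte and smooth muscle (0.41) and macrophage markers (0.45) were higher for 7 of 10 each. Satellite glia (0.21) and Schwann cell markers (0.09) were higher for 6 of 10 each. The part of these cell types was not tested. Of the laminin list 5 of 14 were higher (median -0.15), of the processing list 13 of 28 (median -0.08), with Pcolce at an unadjusted p of 0.0086, and of the receptors 3 of 7 (median -0.01).

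The difference of the tumor effect between the sexes, (FT - FN) - (MT - MN), was called for none of 29 collagens (0% of 13835 genes). Col11a1 (3.59 ± 1.45 on the log2 scale) and Col14a1 (2.56 ± 1.11) had an unadjusted p under 0.05 (background 1.47%), with adjusted p = 1 in edgeR. DESeq2 and limma-voom called none, with 2 (background 2.06%) and 0 (background 4.77%) at an unadjusted p under 0.05. Without FN2, FT2 and FT3 the difference was -0.09 ± 0.97 for Col11a1 and 0.39 ± 0.97 for Col14a1. Col1a1 and Col3a1 then differed by 1.25 ± 0.47 and 2.28 ± 0.86, with an adjusted p of 0.942 for both in edgeR and FT1 as the only FT library. Of all 29 collagens 19 had a positive difference over 12 libraries (65.5%, against 44.7% of all genes, median 0.17 against -0.07), and 16 of 31 over 9 (51.6%, against 46.2%). Of the other lists 6 of 14 laminin genes, 11 of 28 processing genes and 5 of 7 receptors had one over 12 libraries.

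Chains that join into one trimer were set beside each other within each library. The ratio of Col1a1 to Col1a2 in RPKM was 0.429, 0.480 and 0.506 in MN, 0.370, 0.422 and 0.340 in MT, 0.393, 0.0776 and 0.510 in FN and 0.688, 0.252 and 0.367 in FT. Col1a1 was below Col1a2 in all 12 libraries, although type I collagen holds more of the Col1a1 chain. Every MT ratio was below every MN ratio, by a small margin. Col4a1 and Col4a2, which share a promoter region, were near parity, at 1.15, 1.05 and 1.19 in MN, 0.927, 0.819 and 0.941 in MT, 1.25, 0.268 and 1.21 in FN and 0.947, 0.699 and 1.05 in FT. Again every MT ratio was below every MN ratio. How often ratios of other gene pairs did so was not examined, and 13.1% of single genes did not overlap between MT and MN. FN2, with 106 reads of Col4a1 and 384 of Col4a2, lay far below all others. The exons of this pair share 22 bases on opposite strands, and the strand setting of the counting is not given in the sources used here.

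Col4a3 exceeded Col4a4 per length in 11 of 12 libraries, with ratios of 1.25 to 9.52, and FT3 was the exception at 0.179, on 3 and 14 reads. Among the chains of type VI, which forms beaded filaments around cells, Col6a2 (chr10:76058507-76086375) led, at 8.58, 5.16 and 8.26 CPM in MN, 6.16, 12.1 and 16.4 CPM in MT, 10.6, 2.48 and 15.8 CPM in FN and 21.3, 3.70 and 4.18 CPM in FT. FN2, FT2 and FT3 were the lowest 3 of the 12. Col6a1 (chr10:76171537-76188913) stood at 0.126 to 1.34 of Col6a2 per length and Col6a3 (chr1:92663435-92740529) at 0 to 0.372. Ratios of Col6a1 to Col6a2 ran from 0.711 to 0.989 in MN and from 0.261 to 0.599 in MT, again without overlap. Ratios of Col4a3 to Col4a4 and of Col6a3 to Col6a2 overlapped between MN and MT. Col6a3 read 0.141, 0.785 and 0.344 CPM in MN, 0.377, 1.11 and 0.864 CPM in MT, 2.01, 0 and 1.37 CPM in FN and 1.10, 1.31 and 2.23 CPM in FT, on at most 16 reads.

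**Figure D4:**
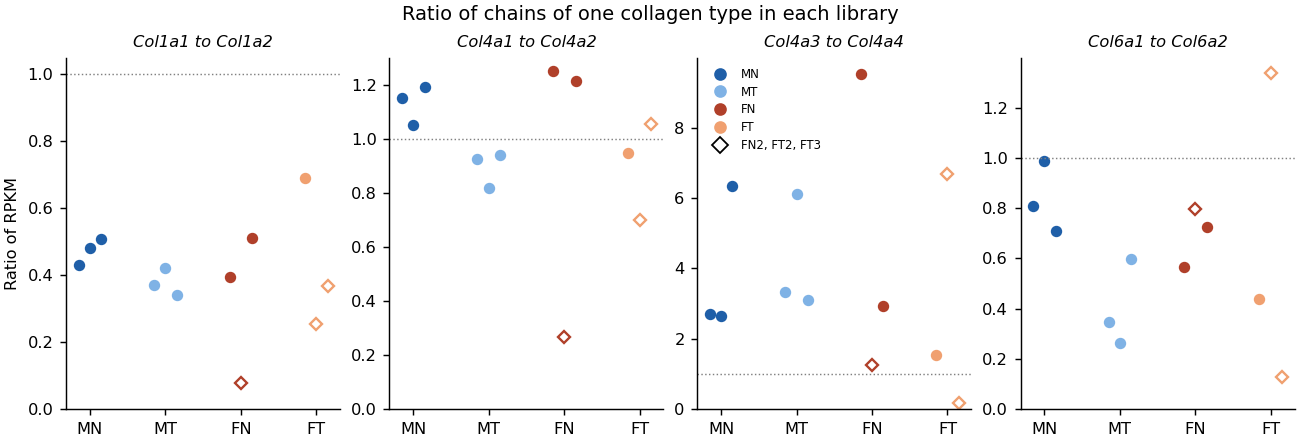
Ratio of RPKM between chains of one collagen type in each library, by group, with a dotted line at parity and open diamonds for FN2, FT2 and FT3. Col1a1 lies below Col1a2 in all libraries, and FN2 has the lowest ratio in the panels of Col1a1 to Col1a2 (0.0776) and Col4a1 to Col4a2 (0.268).

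The total of collagen reads moved with several other sums in the 9 libraries that resembled each other. Laminins, nidogens and heparan sulfate proteoglycans had the same order of libraries as the collagens, from MT1 (109 CPM) and MN2 (166 CPM) to FN1 (288 CPM) and FN3 (323 CPM). Fibroblast markers ran from 271 CPM in MN2 to 548 CPM in FN3, and pericyte and smooth muscle markers from 106 CPM in MN2 to 308 CPM in FN3. Satellite glia markers ran from 4193 CPM in MT1 to 8823 CPM in FN1. Schwann cell markers ran from 1549 CPM in MT1 to 2408 CPM in FT1, and macrophage markers from 7.80 CPM in MT1 to 235 CPM in FN1. Neuron markers were lowest in FN1 (15210 CPM) and highest in MT1 (18543 CPM). The 10 endothelial markers summed to 674, 375 and 940 CPM in MN, 424, 713 and 1087 CPM in MT, 1196 and 1236 CPM in FN1 and FN3 and 971 CPM in FT1. Among these 9 libraries MT1 and MN2 were lowest in both sums and FN1 and FN3 highest, and the order of the libraries between them was the same but for swaps of neighbors. FN2 (776 CPM), FT2 (211 CPM) and FT3 (981 CPM) did not follow this order, since FT2 had the highest collagen sum (439 CPM) with the lowest endothelial sum. The laminin list read 103, 198 and 159 CPM in FN2, FT2 and FT3. The part of these cells in the collagen values was not tested.

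**Figure D5:**
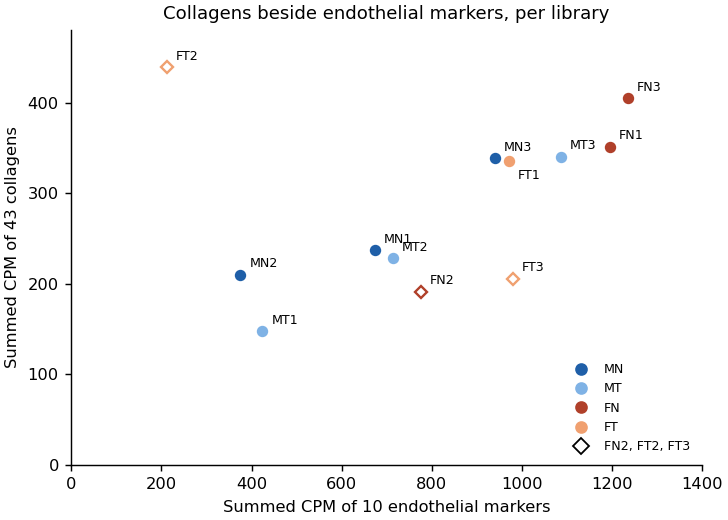
Summed CPM of 43 collagens against summed CPM of 10 endothelial markers, with a labeled point for each library, colored by group, and open diamonds for FN2, FT2 and FT3. The 9 filled points run from MN2 and MT1 at the lower left to FN1 and FN3 at the upper right, and FT2 lies apart at 211 CPM of endothelial markers and 439 CPM of collagens.

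The collagens not described above were low. The fibrillar chains Col5a1 and Col11a2 averaged 0.132 and 0.0735 RPKM, and Col2a1, the chain of cartilage fibrils, 0.0208 RPKM. Col15a1, the multiplexin related to Col18a1, averaged 0.119 RPKM. Col9a2, a FACIT chain, averaged 0.998 RPKM, at 2.39, 3.47 and 2.18 CPM in MN, 0.880, 3.33 and 2.47 CPM in MT, 3.90, 3.39 and 3.56 CPM in FN and 3.57, 5.01 and 2.93 CPM in FT, and no comparison separated its groups. The X-linked chains Col4a5 and Col4a6 reached at most 6 and 1 reads in a library. The remaining chains of the other class averaged from 0.00593 RPKM (Col9a1) to 0.589 RPKM (Col10a1). Reads of Col9a3 could not be told from those of Tcfl5 over 234 shared exon bases on opposite strands, if strand was not used in counting.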

How the data were processed

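Single-end reads of SMART-seq2 libraries from 12 samples were used. The deposited values are raw counts per gene symbol, which the authors made by aligning reads to mm9 with TopHat2 and counting with HTSeq. CASAVA 1.8.2 and SAMtools are named too, and the annotation and strand setting are not given in the sources used here. Between 76.3% and 88.8% of reads in a library were not assigned to a gene and were left out. Reads that mapped to several places (43.0% to 68.4%) are among them. What remained were 4592891 to 8922011 reads on genes.

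Here CPM were computed over gene rows, and RPKM with exon lengths of GENCODE M1 (mm9), which matched 21627 of 22609 symbols (95.7%) and all 43 collagens. Counts were tested with edgeR 4.0.16 (TMM, filterByExpr with a minimum count of 10, quasi-likelihood F-test over 4 groups, Benjamini-Hochberg adjustment over all genes tested, threshold 0.05) in R 4.3.3. Chromosomes X and Y were left out between the sexes. DESeq2 1.42.0, limma 3.58.1 (voom with sample quality weights), another scaling, no filter, a replicate block and leaving out libraries were alternatives. Sums, shares and plots used Python 3.11.15, pandas 2.3.3, numpy 2.4.6 and matplotlib 3.10.9. The fits were also run on simulated counts with changes planted in MT alone, so comparisons between the sexes were not covered. The outcome is not given here.

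Named were the 4 fibrillar, 4 basement membrane and 6 other collagens with the highest mean RPKM, those called, the 3 with the smallest p in each comparison, Col1a1, Col18a1 and chain partners. Other collagens were named after their values were seen. The members, lists and tests were chosen with earlier results of these data known.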

Additional observations from a re-analysis of the deposited data

How the results depend on the processing

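The calls depended on the libraries and the tool. In FN versus MN edgeR called 0 collagens, and edgeR on FN1, FN3 and MN called 2. Limma-voom with sample quality weights called 5 (1 on 9 libraries). The cutoffs of the paper, applied to the edgeR p and the RPKM computed here, counted 1. In FT versus MT edgeR called 0 and DESeq2 called 2. Leaving out each library in turn gave 0 to 2 calls there, with 2 without FT1, and 0 in the other comparisons. The other 111 counts of calls were within 1.5 times the reported ones. Signs turned without FN2, FT2 and FT3 for Col11a1 in FT versus FN (-0.046), in FT versus MT (-0.048) and in the difference of tumor effects (-0.087), and for Col14a1 in FT versus FN (-0.14, and -0.10 with limma-voom). With type IV chains alone the difference of the basement membrane share in FT versus MT was -4.64 points. Leaving out each library in turn, this difference ranged from -11.3 to -7.54, and that in FN versus MN from -8.82 to -4.57. With a replicate block edgeR called 0 collagens in each of the 5 comparisons. Same-numbered libraries of different groups did not deviate together (18 pairs, correlation -0.36 to 0.57, and 4 of 12 libraries closest to their own number), so the numbers were not taken to pair them. The share settings and 2 settings of the calls were chosen after seeing the data. The causes of these changes were not tested. Counts of at most 19 reads in every library, as for Col4a4, Col6a3 and Col19a1, allow no firm level.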
